A study of Mus musculus with 18 samples.

Results

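The transcripts described here are 31 genes of fatty acid oxidation, ketone body metabolism and the PPAR-alpha response, out of 34932 genes in the deposited table, in liver, testis and brain of mice under chronic restraint stress and of control mice. They were chosen by symbol from a fixed list of mitochondrial and peroxisomal oxidation enzymes, ketone genes and PPAR-alpha targets, and the rule itself uses no expression value. Chronic restraint stress holds an animal confined repeatedly as a model of lasting psychological stress. The study asked what that treatment does to the transcriptomes of the 3 tissues. The 6 groups were stressed liver, control liver, stressed testis, control testis, stressed brain and control brain, with 3 libraries each, which the submitters call biological replicates. No genetic change is given for any group. The sources used here do not state strain, age, sex, the number of restraint sessions or the handling of control mice. The mice that gave testis were male, and sample codes recur across the tissues. For the tissue that samples label as brain, the extraction protocol names hippocampus, so which it was is unclear, and it is called brain throughout. Stressed brain replicate 3 carries a description code with the control prefix, while its title, treatment and column say stress.

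Fatty acids are burned in mitochondria after the carnitine shuttle has carried them across the inner membrane, and there a cycle of dehydrogenation, hydration, a further dehydrogenation and thiolysis shortens the chain. Very long and branched chains are shortened first in peroxisomes by a parallel set of enzymes. In the fasting liver the acetyl-CoA so made feeds ketone bodies, which the brain can burn, and the nuclear receptor PPAR-alpha, paired with RXR on DNA, switches on much of this programme. The classical PPAR response element is a direct repeat of the hexamer AGGTCA spaced by a single base.

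Promoter sequences from RefSeq (build GRCm38.p6, matched by symbol) were found for 27 of the 31 genes, each covering 250 bases before and 50 after the annotated start. None was held for Decr1, Acaa2, Vnn1 and Cpt1b. Fabp1, the liver fatty acid binding protein and the most abundant of these transcripts in liver, is shown because it held the only match to a relaxed repeat. Its window is chr6:71199629-71199928 on the plus strand, and the capitals mark the match, which reads AGGCCATAGGTCA on the opposite strand and starts 67 bases before the annotated start (offset -67 in the window). Acaa1b (chr9:119157044-119157343, minus strand) and Acaa1a (chr9:119341044-119341343, plus strand) are shown because these near-identical genes differ in liver level. In both, capitals mark the last 50 bases, from the annotated start onward. Hadha (chr5:30154931-30155230, minus strand) is shown because its window overlaps that of its partner Hadhb, and capitals mark the 228 bases that both windows hold.
Fabp1: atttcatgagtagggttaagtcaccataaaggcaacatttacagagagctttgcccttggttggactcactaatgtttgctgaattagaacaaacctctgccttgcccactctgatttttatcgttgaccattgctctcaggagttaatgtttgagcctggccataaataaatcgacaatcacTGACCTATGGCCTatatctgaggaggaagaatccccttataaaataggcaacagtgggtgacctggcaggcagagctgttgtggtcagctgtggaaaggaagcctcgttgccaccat
Acaa1b: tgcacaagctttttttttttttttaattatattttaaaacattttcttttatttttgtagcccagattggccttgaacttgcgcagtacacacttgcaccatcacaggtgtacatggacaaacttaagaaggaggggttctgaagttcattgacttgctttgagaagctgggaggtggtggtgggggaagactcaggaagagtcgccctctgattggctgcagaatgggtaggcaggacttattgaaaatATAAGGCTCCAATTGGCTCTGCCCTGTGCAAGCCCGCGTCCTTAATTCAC
Acaa1a: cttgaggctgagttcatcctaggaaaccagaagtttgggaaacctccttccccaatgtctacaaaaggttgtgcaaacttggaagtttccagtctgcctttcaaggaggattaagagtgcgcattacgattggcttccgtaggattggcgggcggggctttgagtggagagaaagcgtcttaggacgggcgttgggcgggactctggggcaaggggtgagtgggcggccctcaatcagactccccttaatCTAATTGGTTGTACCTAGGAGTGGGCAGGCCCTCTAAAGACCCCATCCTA
Hadha: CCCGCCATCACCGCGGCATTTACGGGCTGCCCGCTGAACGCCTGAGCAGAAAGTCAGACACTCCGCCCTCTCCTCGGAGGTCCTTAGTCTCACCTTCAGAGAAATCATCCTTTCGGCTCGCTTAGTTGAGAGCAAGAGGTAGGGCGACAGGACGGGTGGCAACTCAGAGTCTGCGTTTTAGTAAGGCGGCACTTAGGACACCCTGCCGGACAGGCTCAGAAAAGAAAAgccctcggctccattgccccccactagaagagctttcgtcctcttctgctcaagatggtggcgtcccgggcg

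The searches covered both strands of the promoter windows and no sequence outside them, so response elements lying elsewhere could not be found. The exact repeat AGGTCANAGGTCA was found in 13 of 32851 RefSeq mouse promoter windows (0.0396%) and in 0 of the 29 windows of these genes. With the fourth letter of each hexamer open, AGGNCANAGGNCA was found in 125 windows (0.381%), among them that of Fabp1 alone of these genes. The single hexamer AGGTCA, which both longer patterns can contain, was found in 5340 windows (16.3%) and in those of 5 of these genes, Acadm, Fabp1, Cpt1c, Acadvl and Cpt1a. The promoter windows of Acaa1a and Acaa1b were identical at 59.4% of aligned bases, while their longest open reading frames in GENCODE M21 were identical at 96.5%, and 38.1% of 50-base windows of the Acaa1a frame occurred unchanged in Acaa1b. Acot1 and Acot2 had 95.5% identical frames with 43.5% of windows shared, so reads of either pair could be split between its 2 genes and their separate values are uncertain. The Cpt1 genes and the pair Vnn1 and Vnn3 shared 0 such windows.

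Total counts ranged from 27.85 to 36.5 megacounts per library. Hepatocyte markers summed to 64690 to 85620 CPM (counts scaled to library size) in stressed liver and 75590 to 88700 CPM in control liver. Neuron markers summed to 7017 to 7189 CPM in stressed brain and 6866 to 7944 CPM in control brain, and spermatid markers to 12670 to 13920 CPM in stressed testis and 11120 to 12090 CPM in control testis. Stressed brain libraries differed among themselves in choroid plexus markers, at 14.67 to 524.4 CPM, against 6.757 to 14.74 CPM in control brain. Macrophage markers moved with stress in liver, where 8 of 10 were called higher in edgeR's quasi-likelihood test (adjusted p under 0.05), beside 0.982% of all tested genes. They summed to 189.6 to 221.9 CPM in stressed liver against 91.59 to 110.1 CPM in control liver. In testis they summed to 79.36 CPM in stressed replicate 2, against 40.54 CPM in the lowest stressed library and 36.65 to 42.01 CPM in control testis. That library also had the highest sums of Sertoli, Leydig and adipocyte markers, at 1491, 457.2 and 26.22 CPM. The other stressed testes had 932.5 and 950.3 CPM of Sertoli, 306.2 and 323.9 CPM of Leydig and 22.04 and 18.02 CPM of adipocyte markers, against 926.3 to 1057, 355.9 to 369.7 and 15.44 to 16.78 CPM in control testis. Adipocyte markers were 0 to 0.1602 CPM in stressed liver and 0.6546 to 2.941 CPM in control liver. Neutrophil markers, also low, summed to 0.6872 to 2.538 CPM in stressed and 3.481 to 6.488 CPM in control liver. In brain they summed to 0.1554 to 0.1868 CPM under stress and 0.6098 to 1.202 CPM in control mice, and in testis the groups overlapped. Endothelial markers summed to 71.78 to 86.86 CPM in stressed and 90.55 to 93.2 CPM in control brain, and overlapped in liver and testis. All libraries are bulk tissue, in which fewer cells of a type and less RNA per cell cannot be told apart.

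Levels per transcript length (the authors' TPM) differed far more between tissues than between treatments. In control mice 24 of the 31 genes had their highest mean in liver, 3 in testis and 4 in brain. A mean of at least 10 TPM was reached by 26 genes in control liver, 12 in control testis and 17 in control brain. In one edgeR fit over the 9 control libraries (adjusted p under 0.05, CPM scale), 27 genes were higher and 2 lower in liver than in brain, where 30% and 40.3% of all tested genes were called in those directions. Against testis, liver was higher for 27 genes and lower for 3, with 32.9% and 52% of all tested genes called. Testis was higher than brain for 14 genes and lower for 13, with 45% and 38.7% of all tested genes called. The median log2 difference over the 31 genes was 4.15 for liver minus brain, 5.14 for liver minus testis and 0.26 for testis minus brain, beside medians over all tested genes of -0.21, -0.92 and 0.20. The TMM factors of this fit, which rescale library sizes, were 0.636 to 0.700 in control liver, 1.06 to 1.11 in control testis and 1.36 to 1.39 in control brain, so differences between tissues on this scale are relative to it. Scaled by library size alone, the median over the set was 3.10 for liver minus brain, 4.41 for liver minus testis and -0.07 for testis minus brain, beside all-gene medians of -1.25, -1.64 and -0.09. On log2(TPM + 1) the set's medians were 2.23, 3.30 and -0.38, beside -1.06, -0.92 and -0.34. Both of these scales were chosen after seeing the data. By library size alone 27 genes were called higher and 3 lower in liver than in brain, 26 and 4 in liver than in testis, and 13 and 13 in testis than in brain. With limma on log2(TPM + 1) the counts were 25 and 4, 25 and 4, and 12 and 15 in the same order. The median for testis minus brain thus changed sign with the scale. With DESeq2 size factors the all-gene medians were -0.22, -1.08 and 0.35, and no gene of the set that was called changed direction under that scaling.

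**Figure D1:**
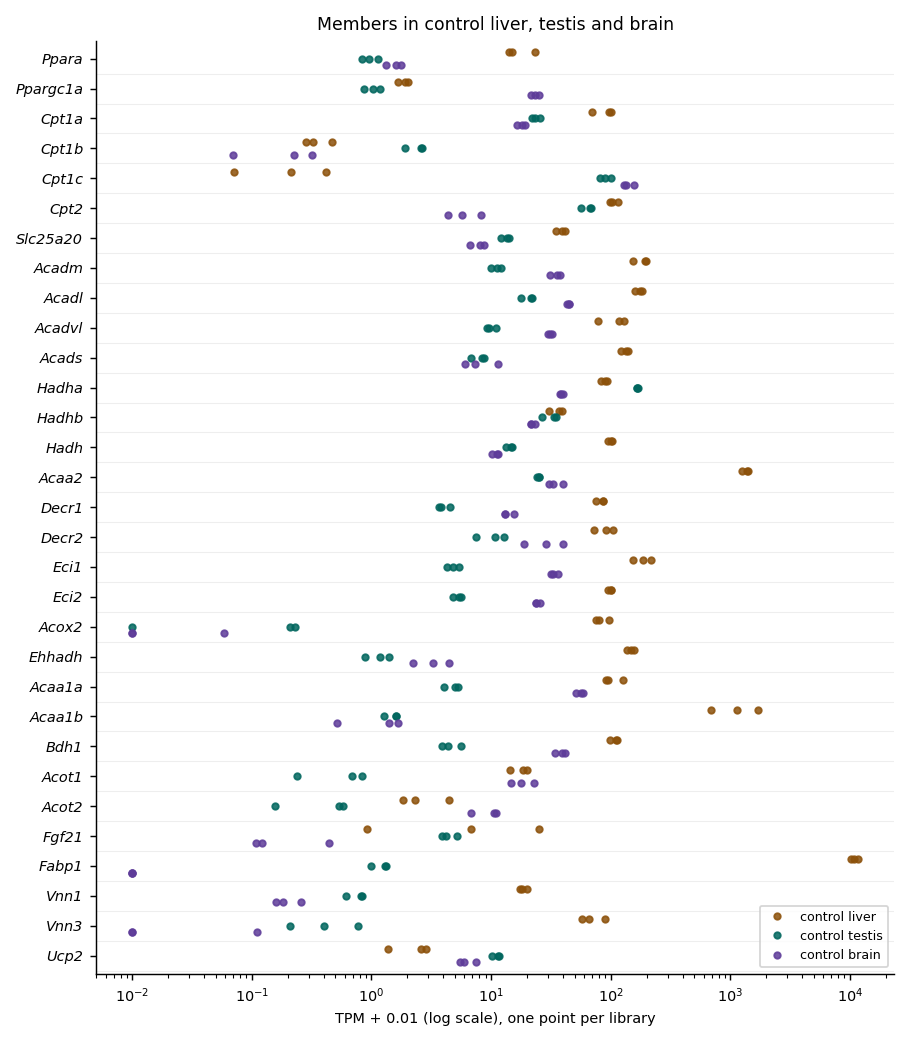
TPM of the 31 genes in control liver, control testis and control brain, with 0.01 added and a log axis, one point per library and genes ordered by role. Most liver points lie to the right of the others, while those of Cpt1c lie at the left and those of Ppargc1a, Acot2 and Ucp2 lie left of brain.

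Of the regulators, Ppara itself, the receptor, averaged 17.4 ± 5.03 TPM in control liver, 0.961 ± 0.145 TPM in control testis and 1.54 ± 0.224 TPM in control brain (mean ± SD, n = 3 each). Its coactivator Ppargc1a had the opposite place of its maximum, with 1.86 ± 0.174 TPM in control liver, 1.01 ± 0.155 TPM in control testis and 23.3 ± 1.67 TPM in control brain. Liver minus brain was 5.34 for Ppara and -1.80 for Ppargc1a in log2 units, with edgeR adjusted p = 6.22e-09 and 7.53e-07. Both kept their direction and their call on log2(TPM + 1), at 2.82 for Ppara and -3.09 for Ppargc1a. For Ppara, the difference between testis and brain did not pass (log2 difference 0.05 ± 0.26 SE, edgeR adjusted p = 0.872).

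The first step of the shuttle, carnitine palmitoyltransferase 1, was split by tissue between its genes. Cpt1a encodes the liver form, Cpt1b the muscle form and Cpt1c a form known from neurons that sits in the endoplasmic reticulum and has little activity. Cpt1a averaged 89.5 ± 17.2 TPM in control liver, 23.7 ± 2.06 TPM in control testis and 18.1 ± 1.35 TPM in control brain. Cpt1c averaged 0.222 ± 0.173 TPM in control liver, 90.9 ± 9.37 TPM in control testis and 140.4 ± 15.4 TPM in control brain. Cpt1b stayed low everywhere, with 0.347 ± 0.0959 TPM in control liver, 2.39 ± 0.412 TPM in control testis and 0.195 ± 0.127 TPM in control brain. As a share of the summed TPM of the Cpt1 genes, Cpt1a made up 98.9%, 99.4% and 99.4% in stressed liver and 99%, 99.5% and 99.5% in control liver. Cpt1c made up 80.8%, 76.8% and 79.6% in stressed testis against 77.6%, 77.5% and 78.0% in control testis. In brain it made up 86.2%, 88.8% and 89.6% under stress against 88.9%, 89.0% and 87.5% in control mice. The groups of each tissue overlapped in these shares, and the tissues did not overlap. For Cpt1c the sign of testis minus brain depended on the scale. It was 0.10 ± 0.22 (SE) after TMM scaling, which did not pass (edgeR adjusted p = 0.665), and -0.62 on log2(TPM + 1), lower in testis and past the threshold (limma adjusted p = 0.00135). Of the later shuttle steps, the inner membrane enzyme Cpt2 averaged 106 ± 8.98 TPM in control liver, 64.2 ± 6.38 TPM in control testis and 6.11 ± 1.997 TPM in control brain, and the carrier Slc25a20 averaged 38.6 ± 3.40, 13.3 ± 1.02 and 7.79 ± 0.994 TPM in the same order.

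**Figure D2:**
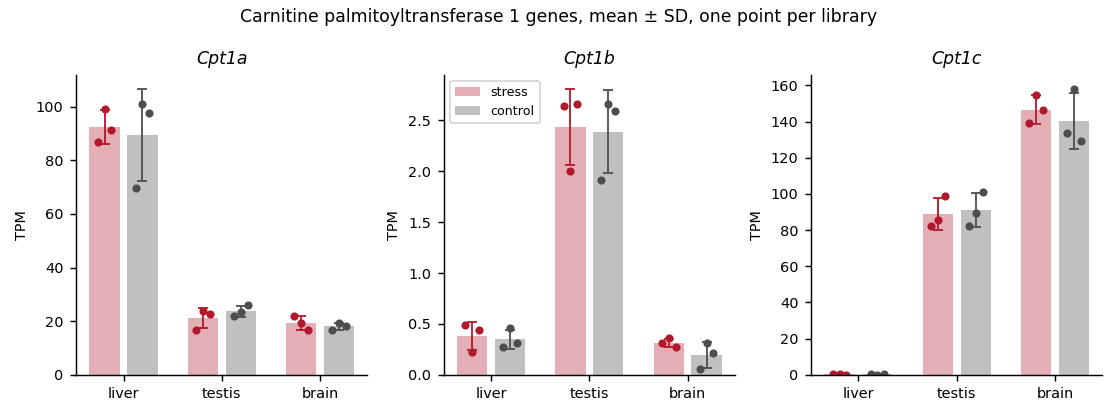
TPM of Cpt1a, Cpt1b and Cpt1c in stressed and control liver, testis and brain, with bars at the mean, error bars for SD (n = 3) and one point per library. Cpt1a is highest in liver, Cpt1b in testis and Cpt1c in brain, and stressed and control libraries overlap for each gene in each tissue.

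The 4 acyl-CoA dehydrogenases, which open each round of oxidation on medium (Acadm), long (Acadl), very long (Acadvl) and short chains (Acads), averaged 108 to 181 TPM in control liver. In control testis Acadm, Acadl and Acadvl averaged 11.1, 20.4 and 9.93 TPM, against 34.6, 44.3 and 31.3 TPM in control brain, and each was called lower in testis than in brain. Hadha and Hadhb encode the alpha and beta subunits of the mitochondrial trifunctional protein, from start sites 273 bases apart on opposite strands. Hadha averaged 88.8 ± 5.81 TPM in control liver, 167 ± 2.26 TPM in control testis and 38.8 ± 1.17 TPM in control brain, and Hadhb 35.8 ± 4.63, 31.7 ± 4.39 and 22.3 ± 1.08 TPM in the same order. The ratio of Hadha to Hadhb TPM was therefore 2.70, 2.27 and 2.52 in control liver, 6.36, 4.91 and 4.81 in control testis and 1.75, 1.63 and 1.84 in control brain. These ratios did not overlap between any of the tissues. For Hadha the sign of liver minus testis depended on the scale. It was 0.20 ± 0.10 (SE) after TMM scaling, which did not pass (edgeR adjusted p = 0.0821). It was -0.53 by library size alone (edgeR adjusted p = 0.000365) and -0.91 on log2(TPM + 1) (limma adjusted p = 1.29e-06), lower in liver and past the threshold on both. Hadhb was called higher in liver than in testis after TMM scaling but not on log2(TPM + 1) (0.17, limma adjusted p = 0.23). The medium-chain thiolase Acaa2 averaged 1346 ± 88.6 TPM in control liver, 24.9 ± 0.662 TPM in control testis and 34.5 ± 4.74 TPM in control brain. Hadh, the short-chain hydroxyacyl-CoA dehydrogenase, averaged 99.6 ± 3.79, 14.4 ± 0.798 and 10.9 ± 0.581 TPM in that order.

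Of the peroxisomal genes, Acox2, the oxidase for branched chains and bile acid precursors, averaged 84.5 ± 11.5 TPM in control liver and 0.138 ± 0.120 TPM in control testis, and had 2 counts in all over the 3 control brain libraries. The bifunctional enzyme Ehhadh averaged 148 ± 9.43 TPM in control liver, 1.15 ± 0.260 TPM in control testis and 3.32 ± 1.13 TPM in control brain. Of the paired peroxisomal thiolases, Acaa1b averaged 1180 ± 504 TPM in control liver, 1.49 ± 0.197 TPM in control testis and 1.18 ± 0.599 TPM in control brain, while Acaa1a averaged 105 ± 19.6, 4.77 ± 0.637 and 55.8 ± 4.07 TPM. The ratio of Acaa1b to Acaa1a TPM was 13.4, 7.59 and 12 in control liver, 0.312, 0.304 and 0.323 in control testis and 0.00994, 0.029 and 0.0235 in control brain. The 3 tissues did not overlap in this ratio, subject to the shared sequence of the pair.

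Among the auxiliary enzymes that prepare unsaturated chains, Decr1, Decr2, Eci1 and Eci2 averaged 82.6 to 185 TPM in control liver, 3.998 to 10.4 TPM in control testis and 13.9 to 33.6 TPM in control brain. Bdh1, which interconverts the ketone bodies acetoacetate and beta-hydroxybutyrate, averaged 108 ± 7.38 TPM in control liver, 4.59 ± 0.864 TPM in control testis and 38.5 ± 3.78 TPM in control brain. The cytosolic thioesterase Acot1 averaged 17.7 ± 2.92 TPM in control liver, 0.581 ± 0.312 TPM in control testis and 18.4 ± 4.08 TPM in control brain, and the mitochondrial Acot2 2.84 ± 1.38, 0.415 ± 0.233 and 9.49 ± 2.32 TPM in the same order. Liver minus brain for Acot1 was 1.81 and called higher after TMM scaling (edgeR adjusted p = 0.000124) but -0.04 on log2(TPM + 1) (limma adjusted p = 0.909). For Acot2 it was 0.14 and not called after TMM scaling (edgeR adjusted p = 0.819) but -1.48 and called lower on log2(TPM + 1) (limma adjusted p = 0.000525). Of the remaining PPAR-alpha targets, Fabp1 averaged 10970 ± 751 TPM in control liver and 1.19 ± 0.188 TPM in control testis, with 0 counts in every brain library. Against a floor of 3 counts per library, Fabp1 was at least 35600-fold higher in control liver than in control brain. This estimate uses counts scaled by library size alone, without TMM factors, and covers counting error only. The hormone Fgf21 averaged 11.0 ± 12.7 TPM in control liver, 4.39 ± 0.666 TPM in control testis and 0.213 ± 0.188 TPM in control brain. Its liver level is carried by few libraries: liver minus testis was 2.37 (edgeR adjusted p = 0.0162), but 1.68 with a block for the sample codes that recur across tissues (adjusted p = 0.0631) and 1.01 without control liver replicate 3 (adjusted p = 0.184), and without control testis replicate 3 the adjusted p was 0.0549. By library size alone Fgf21 had an adjusted p of 0.0697, and on log2(TPM + 1) a difference of 0.45 (limma adjusted p = 0.592). The mitochondrial carrier Ucp2 averaged 2.27 ± 0.793 TPM in control liver, 11.2 ± 0.833 TPM in control testis and 6.31 ± 1.01 TPM in control brain. The sign of liver minus brain for Ucp2 depended on the scale. It was 0.37 after TMM scaling (edgeR adjusted p = 0.209, and 0.62 with 0.0115 without control liver replicate 2). It was -0.68 by library size alone (edgeR adjusted p = 0.0266) and -1.18 on log2(TPM + 1) (limma adjusted p = 0.000219), lower in liver and past the threshold on both. Some differences between testis and brain also turned on a single library or on the scaling. The call was lost for Acads without control brain replicate 1 or 2 or control testis replicate 3 (adjusted p up to 0.0758), by library size alone (0.163) and on log2(TPM + 1) (-0.01, limma adjusted p = 0.971), and for Decr2 without control brain replicate 2, without control testis replicate 1 or 3 or with DESeq2 size factors (up to 0.127). Ehhadh lost it without control brain replicate 3 or control testis replicate 1 (up to 0.0811), Acox2 without control testis replicate 2 or 3 (up to 0.058) or on log2(TPM + 1) (limma adjusted p = 0.253), and Acadl without control testis replicate 3 or with DESeq2 size factors (up to 0.0964). For Acaa2, testis minus brain was 0.26 after TMM scaling (edgeR adjusted p = 0.13), passed as higher in testis without control brain replicate 3 (0.0378) and with those size factors (0.0207), and was -0.44 and passed as lower in testis on log2(TPM + 1) (limma adjusted p = 0.00253). No direction is therefore given for Acaa2 between testis and brain. Acaa1b passed as higher in testis without control liver replicate 1 or 2 or with those size factors (0.0231 to 0.0405), but not by library size alone (0.184) or on log2(TPM + 1) (limma adjusted p = 0.506). Cpt1b was called higher in liver than in brain after TMM scaling but not on log2(TPM + 1) (0.18, limma adjusted p = 0.22).

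In liver, stress lowered 1 of the 31 genes and raised 0 at the edgeR threshold (adjusted p under 0.05), where 0.645% of all tested genes were called lower and 0.982% higher, and DESeq2 called 2 lower and 0 higher. The gene was Vnn1 (ENSMUSG00000037440), a PPAR-alpha target whose product, vanin-1, splits pantetheine into pantothenic acid and cysteamine. The core enzymes of oxidation stayed close to control, and for 20 of the 31 genes the 95% interval of the fold change lay within 1.5-fold in either direction. The log2 fold change was positive for 13 genes and negative for 18, with a median of -0.04 beside -0.01 over all 14253 tested genes. An unadjusted p under 0.05 was reached by 1 gene in the upward and 4 in the downward direction, beside 8.78% and 8.37% of all tested genes. Summed TPM of the 31 genes was 14530, 15580 and 11470 in stressed liver and 16930, 14520 and 15320 in control liver, with overlap.

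Vnn1 measured 6.12, 7.53 and 5.96 CPM in the 3 stressed livers, against 26.1, 22.8 and 21.1 CPM in control livers. All stressed libraries lay below all control libraries. The log2 fold change was -1.83 ± 0.16 (SE, 95% interval -2.19 to -1.48, edgeR adjusted p = 0.00207), lower in 3 of 3 stressed libraries, and the call held under each of the 12 alternatives, with values between -1.95 and -1.65. Its neighbour in function, Vnn3 (ENSMUSG00000020010), measured 41.1, 54.61 and 36.5 CPM in stressed liver and 87.1, 54.63 and 59.4 CPM in control liver. The highest stressed and the lowest control library nearly met. Its log2 fold change of -0.61 ± 0.21 did not pass (edgeR adjusted p = 0.174).

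Fgf21 (ENSMUSG00000030827), the fasting hormone that PPAR-alpha induces in liver, measured 0.320, 0.725 and 0.196 CPM in stressed liver and 3.44, 0.446 and 11.7 CPM in control liver. Control replicate 2 lay inside the range of the stressed libraries, so the groups overlapped, and the control libraries differed from each other more than the stressed ones did. The log2 fold change was -3.62 ± 0.98 (95% interval -5.83 to -1.42, edgeR adjusted p = 0.0993). It passed with DESeq2 (adjusted p = 0.043), without the filter on low counts (adjusted p = 0.000213) and without control replicate 2 (adjusted p = 0.0421), and over all alternatives the adjusted p ranged from 0.000213 to 0.375.

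Bdh1 (ENSMUSG00000046598) measured 181, 183 and 145 CPM in stressed liver and 227, 198 and 215 CPM in control liver, without overlap. Its log2 fold change of -0.33 ± 0.14 did not pass (edgeR adjusted p = 0.252). The peroxisomal thiolase Acaa1b measured 948, 792 and 745 CPM in stressed liver and 1802, 712 and 1121 CPM in control liver. Control replicate 1 stood high and control replicate 2 lay below every stressed library (log2 fold change -0.55 ± 0.28, edgeR adjusted p = 0.36). Its ratio to Acaa1a in TPM was 7.85, 7.35 and 6.77 in stressed liver and 13.4, 7.59 and 12 in control liver. Acot2 measured 1.63, 2.51 and 1.44 CPM in stressed liver and 5.24, 2.65 and 1.99 CPM in control liver, again with control replicate 1 highest and with overlap (log2 fold change -0.82 ± 0.40, edgeR adjusted p = 0.33).

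**Figure D3:**
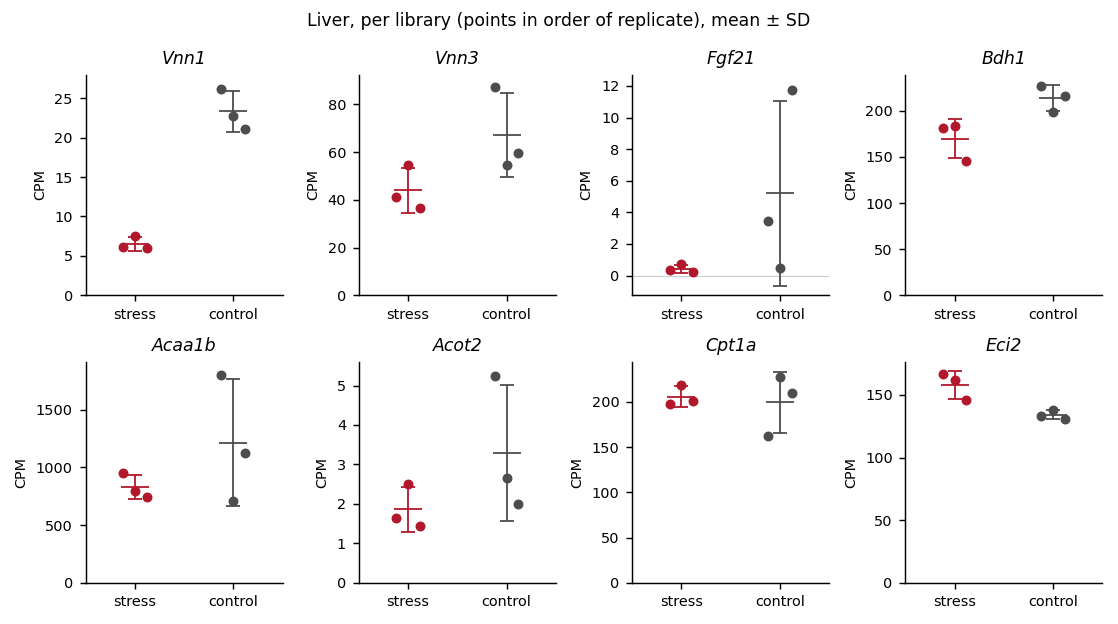
CPM of 8 genes in stressed and control liver, points in the order of replicate number, bars for the mean ± SD (n = 3). Stressed and control points are clearly apart for Vnn1, just apart for Vnn3, apart for Bdh1 and Eci2, and overlap for Fgf21, Acaa1b, Acot2 and Cpt1a.

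The receptor and the entry enzyme did not separate the groups. Ppara measured 28.3, 47.7 and 42.4 CPM in stressed liver and 30.8, 46.6 and 26.9 CPM in control liver (log2 fold change 0.18 ± 0.24, edgeR adjusted p = 0.748). Cpt1a measured 198, 219 and 201 CPM in stressed liver and 162, 227 and 209.6 CPM in control liver, a log2 fold change of 0.04 with a 95% interval of -0.29 to 0.38. All 5 shuttle genes had positive values, from 0.03 for Cpt2 to 0.64 for Cpt1c, and none passed. Within the trifunctional protein, Hadha measured 259, 281 and 288 CPM in stressed liver and 238, 250.9 and 250.5 CPM in control liver, without overlap, while Hadhb was at 122, 103 and 117 CPM in stressed liver and 109, 136 and 123 CPM in control liver. Neither passed (log2 fold changes 0.16 and -0.11, edgeR adjusted p = 0.539 and 0.722).

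In CPM, groups failed to overlap upward in 4 genes, Slc25a20, Hadha, Eci2 and Ucp2, and downward in 3, Bdh1, Vnn1 and Vnn3. Over all tested genes the corresponding shares were 12% and 11.1%. On the authors' TPM the groups overlapped for Slc25a20, Hadha and Vnn3, while those of Hadh lay apart downward. Eci2, an isomerase for unsaturated chains, measured 167, 162 and 146 CPM in stressed liver and 133, 138 and 131 CPM in control liver (log2 fold change 0.24 ± 0.12, edgeR adjusted p = 0.333). Ucp2 (ENSMUSG00000033685) measured 13.1, 13.3 and 13.2 CPM in stressed liver and 10.7, 5.00 and 9.10 CPM in control liver. The stressed libraries lay close together and above all control libraries, yet the log2 fold change of 0.67 ± 0.25 did not pass (edgeR adjusted p = 0.205). The summed macrophage markers given above were higher in the same stressed livers, and their part in the Ucp2 values was not tested.

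**Figure D4:**
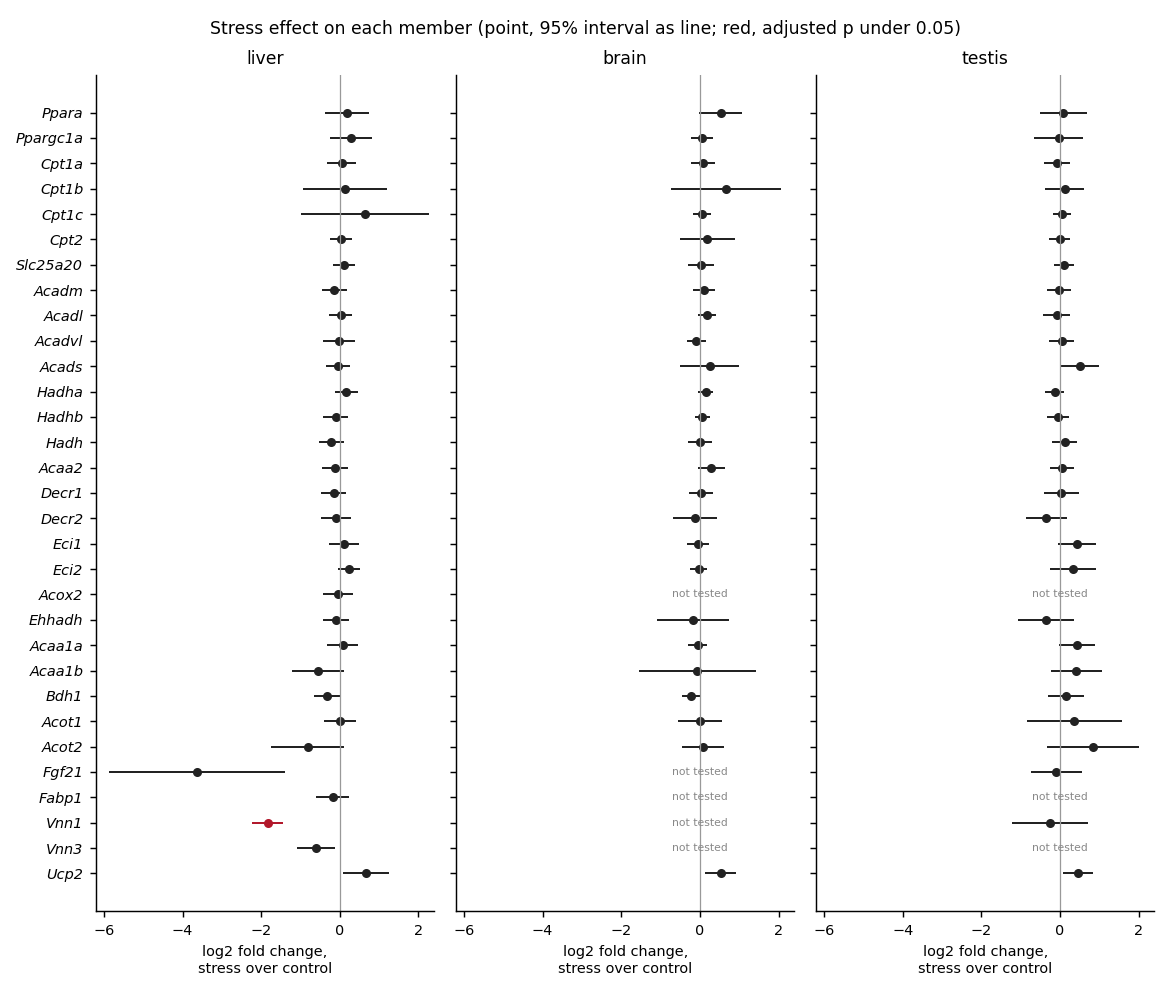
Log2 fold change of each of the 31 genes, stress over control, in liver, brain and testis, with lines for the 95% interval derived from edgeR's F statistic. Only Vnn1 in liver is drawn in red, for an adjusted p under 0.05, and genes that did not pass the filter on low counts are written as not tested.

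In brain, 0 of the 26 genes with enough counts passed edgeR in either direction, where 0.00566% of all tested genes were called higher and 0% lower. Acox2, Fgf21, Fabp1, Vnn1 and Vnn3 fell under the filter on low counts. The log2 fold change was positive for 17 genes and negative for 9, with a median of 0.05 beside 0.00 over all tested genes, and in 16 genes the 95% interval lay within 1.5-fold. Ppara and Ucp2 reached an unadjusted p under 0.05 upward and Bdh1 downward, beside 4.16% and 3.38% of all tested genes, and DESeq2 called 0 of the set. Ppara measured 2.73, 2.59 and 2.33 CPM in stressed brain and 1.49, 1.97 and 1.86 CPM in control brain, with all stressed libraries above all control ones. Its log2 fold change was 0.53 ± 0.22 (edgeR adjusted p = 0.662). Ucp2 measured 16.7, 19.2 and 21.2 CPM in stressed brain and 11.5, 12.3 and 15.9 CPM in control brain, also without overlap. Its log2 fold change was 0.53 ± 0.15 (edgeR adjusted p = 0.546 without and 0.112 with a replicate block). Acadl and Hadha were the other genes whose groups did not overlap, both upward, so that 4 genes did so upward and 0 downward beside 7.21% and 6.64% of all tested genes. Bdh1 measured 40.2, 36.3 and 36.3 CPM in stressed brain and 44.7, 46.7 and 39.8 CPM in control brain, with the highest stressed library above the lowest control (log2 fold change -0.22 ± 0.09, edgeR adjusted p = 0.662). Cpt1c, the main Cpt1 transcript of this tissue, measured 114, 126 and 123 CPM in stressed brain and 111, 130.1 and 110.5 CPM in control brain, with a 95% interval of the log2 fold change from -0.15 to 0.25.

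In testis, 0 of the 28 tested genes passed edgeR in either direction, where 0.00502% of all tested genes were called higher and 0.0151% lower, and DESeq2 called 0 of the set. Acox2, Fabp1 and Vnn3 had too few counts. The log2 fold change was positive for 17 genes and negative for 11, with a median of 0.06 beside 0.01 over all tested genes, and in 13 genes the 95% interval lay within 1.5-fold. Ucp2 measured 35.6, 54.5 and 38.6 CPM in stressed testis and 29.1, 33.1 and 31.8 CPM in control testis. Stressed replicate 2 was highest, but the other stressed libraries also lay above all control ones (log2 fold change 0.45 ± 0.16, edgeR adjusted p = 0.422, and 0.24 without stressed replicate 2). Acads measured 8.88, 13.5 and 8.50 CPM in stressed testis and 6.28, 7.66 and 7.83 CPM in control testis, and its log2 fold change of 0.50 was 0.25 without stressed replicate 2. Acaa1a measured 10.5, 14.6 and 9.25 CPM in stressed testis and 7.29, 9.36 and 8.70 CPM in control testis, with overlap, and its 0.44 was 0.22 without that library. Stressed replicate 2 is also the library with the high macrophage, Sertoli, Leydig and adipocyte marker sums given above, whose part in these values was not tested. These 3 genes made up all with an unadjusted p under 0.05, upward, with 0 downward, beside 6.43% and 5.3% of all tested genes (edgeR adjusted p = 0.422 or 0.423).

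In CPM, groups in testis failed to overlap upward for Acads, Eci1 and Ucp2 and downward for Hadha, beside 10.3% and 10.7% of all tested genes. On the authors' TPM the groups of Ucp2 overlapped, while those of Acaa1a lay apart upward. Eci1, the mitochondrial isomerase, measured 2.69, 2.86 and 3.04 CPM in stressed testis and 2.42, 1.88 and 2.08 CPM in control testis (log2 fold change 0.43 ± 0.21, edgeR adjusted p = 0.433). Hadha measured 343, 292 and 345 CPM in stressed testis and 369, 355 and 353 CPM in control testis, with replicate 2 lowest (log2 fold change -0.14 ± 0.09, edgeR adjusted p = 0.534). Cpt1c measured 101, 108 and 108 CPM in stressed testis and 93.8, 100.5 and 111 CPM in control testis, with a 95% interval of the log2 fold change from -0.15 to 0.27.

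In CPM, Ucp2 was the gene of the set whose stressed libraries lay above the control libraries in all of liver, brain and testis. Its log2 fold changes were 0.67, 0.53 and 0.45, and it passed the adjusted threshold in none. On the authors' TPM its groups lay apart in liver and brain but overlapped in testis. There they spanned 11.5 to 17.24 TPM under stress and 10.21 to 11.76 TPM in control mice. Groups lay apart upward in CPM in 12%, 7.21% and 10.3% of all genes tested in liver, brain and testis. The share that did so in all 3 at once was not computed. The tissues were taken to come from the same mice, since their sample codes recur, so these 3 comparisons are not independent. Summed macrophage markers lay higher in stressed than in control liver without overlap, overlapped in brain at 186.8 to 226.4 CPM under stress against 188.2 to 234.8 CPM in control mice, and overlapped in testis.

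**Figure D5:**
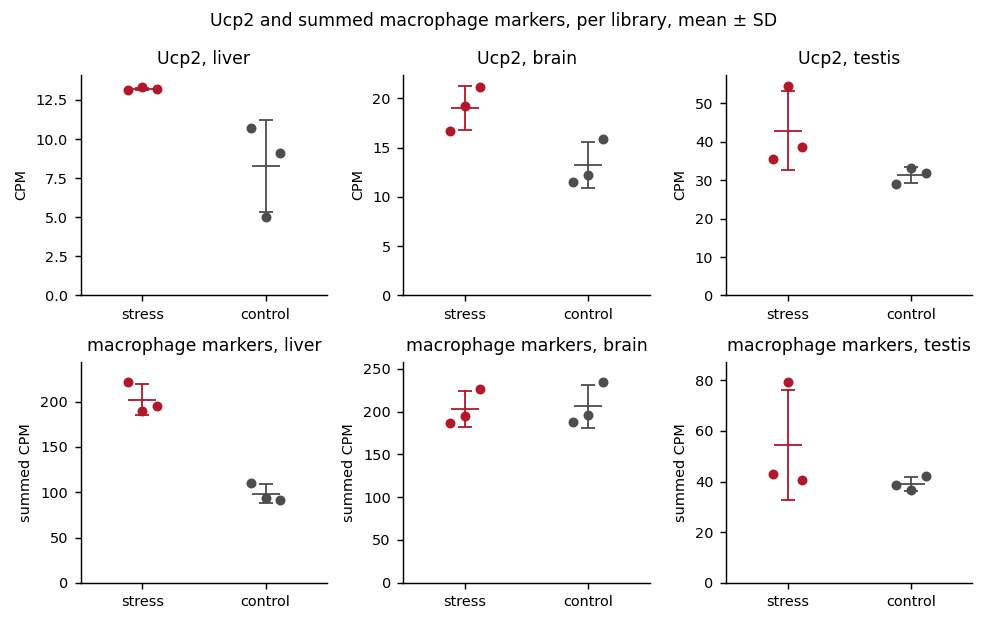
CPM of Ucp2 (top) and summed CPM of 10 macrophage markers (bottom) in stressed and control liver, brain and testis, one point per library with the mean ± SD (n = 3). Ucp2 points under stress lie above control points in each tissue, while the marker sums separate the groups in liver only.

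The difference of the stress effects between tissues was tested as an interaction. For liver minus brain 0 of the 31 genes passed edgeR, where 0.195% of all tested genes were called, and for liver minus testis 0 passed, where 0.154% were called. With a block for the recurring sample codes, 2 and 16 genes of the whole table were called in place of 37 and 33, and 0 of the set in both. An unadjusted p under 0.05 was reached by 1 gene for liver minus brain and by 6 for liver minus testis, all negative, beside 5.72% and 8.84% of all tested genes in that direction, and DESeq2 was not run for these 2 comparisons. Vnn1 had an interaction of -1.64 ± 0.39 against testis (edgeR adjusted p = 0.106) and -1.41 ± 0.46 against brain (adjusted p = 0.342). The fall of Vnn1 was therefore not shown to differ between liver and the other tissues, where it had 0.597 CPM in stressed and 0.722 CPM in control testis and 0.101 CPM in stressed and 0.138 CPM in control brain. Fgf21 had an interaction of -3.55 ± 1.12 against testis (edgeR adjusted p = 0.194, and 0.0427 without control liver replicate 2).

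Beyond the 31, 69 other genes of the same pathways were listed, with earlier results of these data known, and 65 were tested in liver. The log2 fold change was positive for 21 and negative for 44 of them, with a median of -0.13 beside -0.01 over all tested genes. An unadjusted edgeR p under 0.05 was reached by 6 upward and 14 downward, beside 8.78% and 8.37% of all tested genes. Groups did not overlap in CPM upward for 8 and downward for 17, beside 12% and 11.1%. Since the list was chosen with earlier results known, these counts are no test of it. At the adjusted threshold 1 was called higher and 1 lower, beside 0.982% and 0.645%. The higher one was Angptl4, a secreted inhibitor of lipoprotein lipase that PPAR-alpha and glucocorticoids induce, at 149.6, 93.0 and 135 CPM in stressed liver and 28.4, 19.9 and 25.3 CPM in control liver (log2 fold change 2.36 ± 0.20, edgeR adjusted p = 0.00207). The lower one was Pparg, the adipose PPAR, at 5.13, 4.41 and 4.91 CPM in stressed liver and 12.6, 9.70 and 9.69 CPM in control liver (-1.15 ± 0.18, edgeR adjusted p = 0.0223). Groups did not overlap for either, and the Pparg call was lost without stressed replicate 1, 2 or 3 (adjusted p = 0.0663, 0.0511 and 0.101). Adipocyte marker sums were also higher in control liver, but they reached at most 2.941 CPM, and 1 of the 6 markers passed the filter on low counts in liver. Their part in the Pparg values was not tested. Acot3, a peroxisomal thioesterase of the Acot1 cluster, measured 2.05, 2.78 and 1.31 CPM in stressed liver and 19.4, 3.57 and 12.9 CPM in control liver. Its groups did not overlap and its log2 fold change of -2.54 ± 0.54 missed the threshold (edgeR adjusted p = 0.0518). Over all alternatives in edgeR, DESeq2 and limma its adjusted p ranged from 1.32e-05 to 0.215, so the call depended on the setting. The same control libraries, replicates 1 and 3, stood high for Acot3, Fgf21 and Acaa1b.

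By list, the 14 tested mitochondrial and carnitine genes had 3 positive and 11 negative values in liver, with Slc22a5, the plasma membrane carnitine transporter, nearest to a call at 24.4 ± 4.19 CPM in stressed and 17.3 ± 1.79 CPM in control liver (edgeR adjusted p = 0.155). The 15 tested peroxisomal genes had 3 positive and 12 negative values. Of 7 tested ketone genes 1 was positive and 6 negative, and Bdh2 came nearest at 1.89 ± 0.143 CPM in stressed and 3.06 ± 0.173 CPM in control liver (edgeR adjusted p = 0.182). Groups did not overlap in CPM downward for 5 of these ketone genes and upward for 0, beside 11.1% and 12% of all tested genes. An unadjusted edgeR p under 0.05 was reached by 3 downward and 0 upward, beside 8.37% and 8.78%. As for the whole list, these counts are no test of it. Of 10 regulators and partners 7 were positive and 3 negative, and of 19 tested target genes 7 were positive and 12 negative.

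In brain 0 of 58 tested genes of these lists passed. The smallest p of each list was that of Mlycd (log2 fold change -0.14), Pex11a (0.21), the ketone and lactate carrier Slc16a1 (-0.22), the PPAR partner Rxra (0.36) and the lipase Mgll (-0.23). Of these Rxra had the lowest edgeR adjusted p, 0.442, at 48.9 ± 2.66 CPM in stressed and 38.2 ± 2.54 CPM in control brain. In testis 0 of 59 passed, and genes with the smallest p of their list were Etfb (log2 fold change 0.40), Ech1 (0.17), the corepressor Ncor1 (-0.37) and the fatty acid transporter Cd36 (-0.78). Cd36 stood at 7.87 ± 1.75 CPM in stressed and 13.5 ± 1.44 CPM in control testis (edgeR adjusted p = 0.422, and 0.0264 with DESeq2).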

How the data were processed

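RNA was sequenced from 18 libraries of liver, brain and testis, made with a stranded total RNA kit per the labels' protocols. The authors deposited 1 table of 34932 genes with whole-number read counts, TPM and FPKM per library. The deposited counts carry no normalization. The authors also deposited TPM and FPKM, which the values show to rest on these counts and 1 length per gene; FPKM was not used. Genome build mm39 is named in the submitters' processing notes, while aligner, counter, annotation and strand setting were not stated in the sources used here. Symbols came from a gene name table by gene identifier and named 34362 genes.

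Tests were run on counts in R 4.3.3 by the quasi-likelihood method of edgeR 4.0.16, after TMM scaling and its default expression filter, with Benjamini-Hochberg adjustment over all tested genes and a threshold of 0.05, within each tissue, as interactions over 12 libraries, and over the 9 control libraries for tissues. CPM values use TMM factors of the 6 libraries of a tissue. Log2 fold changes are stress minus control. Errors are SD between libraries or SE of the fit. This SE was computed from the log2 fold change and the F statistic of the edgeR test. The intervals were built from it. Values of low transcripts, such as Fgf21, liver Cpt1c and brain Cpt1b, rest on few counts, and intervals are 95%. Alternatives were DESeq2 1.42.0, its size factors, limma 3.58.1 (voom, and log2 of TPM with a pseudocount of 1), no filter, a replicate block and leaving out each library; for tissues, library size alone and limma on log2 of TPM were chosen after seeing the data. The edgeR test was also run on counts simulated from the means and dispersions of these data, with libraries drawn independently. That cannot show how the test behaves where libraries deviate together, and its outcome is not given here.

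Same-numbered stress and control libraries deviated together in brain (correlations 0.405, 0.317 and 0.626) but not in every pair in liver (0.289, 0.054, 0.047) or testis (0.138, 0.14, -0.175), so the block is given for brain, and, from recurring sample codes, between tissues. The members and lists were chosen with earlier results of these data known. Named beyond the members were, per list and tissue, up to 4 genes that passed, or else the gene with the smallest p; 1 gene that this rule named is not reported here.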

Additional observations from a re-analysis of the deposited data

Results flagged for a closer look

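Hadha, the alpha subunit of the trifunctional protein, stood apart from control on opposite sides in different tissues without passing the test in any. In CPM every stressed liver lay above every control liver, with a log2 fold change of 0.163. Every stressed brain lay above every control brain, with 0.147, while every stressed testis lay below every control testis, with -0.137. On the authors' TPM brain and testis stayed apart but the liver groups overlapped. Liver spanned 91.71 to 105.5 TPM under stress and 82.57 to 94.09 TPM in control mice. No tissue passed edgeR (adjusted p = 0.539 for liver, 0.697 for brain and 0.534 for testis). Groups failed to overlap in CPM in the same direction in 12% of the genes tested for liver, 7.21% for brain and 10.7% for testis. The share of genes with this joint pattern was not computed. The difference itself did not pass when liver and testis were compared directly (interaction 0.25 ± 0.16, edgeR adjusted p = 0.512), and brain against testis was not tested.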

How the results depend on the processing

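No called stress effect of the set changed direction. Differences between tissues did, on log2(TPM + 1) for Acot1 (-0.044), Acot2 (-1.48) and Ucp2 (-1.18) in liver minus brain, Hadha (-0.91) in liver minus testis, and Cpt1c (-0.62), Acads (-0.009) and Acaa2 (-0.44) in testis minus brain, and by library size alone for Ucp2 (-0.68) and Hadha (-0.53). On log2(TPM + 1), 4 genes of the set in place of 2 were called lower in liver than in brain. In liver 232 genes of the whole table were called, against 858 without the filter, 475 with the replicate block, 856 with DESeq2, 143 on log2 TPM and 31 to 291 with one library left out; the genes of the set called lower were 1, against 3 without the filter (Vnn1, Vnn3 and Fgf21), 2 with DESeq2 and 1 to 2 with one library left out. In brain 1 gene of the table was called, against 2 without the filter, 22 with the replicate block, 137 with DESeq2, 0 with voom and 0 to 1 with one library left out. In testis the count was 4, against 25 without the filter, 61 with DESeq2, 2 on log2 TPM and 0 to 21 with one library left out. For liver minus brain it was 37, against 123 without the filter, 2 with the replicate block and 5 to 112 with one library left out. For liver minus testis it was 33, against 134, 16 and 0 to 129 in the same order, with 0 to 1 of the set called lower. The replicate block changed no call of the set within a tissue. The causes of these shifts were not tested. Numbers of calls over all genes rest on 3 libraries a group, and low transcripts such as Fgf21, Cpt1b and the liver Cpt1c have few counts behind their values.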
